A study of Mus musculus with 6 samples.

Results

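The Hox genes of the mouse are homeobox transcription factor genes that stand in 4 clusters, Hoxa, Hoxb, Hoxc and Hoxd. They were taken by their symbols, Hox followed by a cluster letter and a paralogue number. This gave 38 of the 17742 named genes on the array, 10 in Hoxa, 10 in Hoxb, 9 in Hoxc and 9 in Hoxd. The 38 genes were read by 40 probes. Hoxb3 and Hoxc8 had 2 probes each, and a gene was read by whichever of its probes was brightest on average over the 6 arrays. Gene expression was measured in female BALB/c mice, on 6 arrays hybridised with Cy5-labelled RNA. The labels give brain, ovary and uterus from mice without treatment (mock) and from mice given SHT, the herbal decoction Sheng-Hua-Tang, by mouth at 200 mg/kg for 7 days. There was 1 array in each of the 6 groups, so no difference between 2 arrays has a replicate check. The labels give no age, no number of mice behind an array and no pooling.

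Within a Hox cluster all genes point the same way along the chromosome. Genes with low paralogue numbers lie at the 3′ end and are used from the hindbrain backwards, and genes with high numbers lie at the 5′ end and are used in the hind part of the body. The forebrain forms in front of the Hox territory. In the female reproductive tract the 5′ Hoxa genes follow the order of the organs: Hoxa9 is known for the oviduct, Hoxa10 for the uterus, Hoxa11 for the uterus and cervix and Hoxa13 for the upper vagina. Adult tissues keep much of this code.

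The labels do not settle which tissue an array holds. By marker genes, none of them a Hox gene, the arrays fell into pairs that crossed the tissue labels, and arrays are named here by their labels alone. On the neuronal pair (mock brain and SHT ovary) all 6 measured neuron markers were above background, with summed intensities of 144593 and 153330 against 1404 to 6263 elsewhere. On the gonadal pair (SHT brain and mock uterus) all 8 ovary markers were above background, with sums of 96184 and 141207 against 1258 to 4540 elsewhere. On the keratin-rich pair (mock ovary and SHT uterus) all 11 squamous epithelium markers were above background, with sums of 391607 and 300518 against 5076 to 6108 elsewhere, while the 8 uterus markers had sums of 126499 and 154970 there and 96963 and 74168 on the gonadal pair. No marker of these 4 lists read 0 or less on any array. Background was set for each array at the 95th percentile of its 528 olfactory receptor genes, which few tissues use, and lay between 275 (SHT brain) and 542 (mock brain). The arrays were not scaled to each other, and intensities of different probes cannot be compared with each other, so each gene is followed across the arrays. In RNA from whole tissue, fewer cells that use a gene and less RNA per cell cannot be told apart.

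Most Hox genes were under background on the neuronal pair, and more of them were above it on the other 4 arrays. Only 3 of 38 Hox genes, Hoxd3, Hoxd10 and Hoxd13, were above background on each neuronal array, mock brain and SHT ovary, which is 7.89% of the Hox genes against 44.2% and 48.0% of all named genes. On the gonadal pair 20 (SHT brain) and 18 (mock uterus) Hox genes were above background, or 52.6% and 47.4%, beside 54.4% and 55.3% of all genes. On the keratin-rich pair 13 (mock ovary) and 16 (SHT uterus) were above background, or 34.2% and 42.1%, beside 51.0% and 55.2% of all genes. Of the 38 genes, 20 were above background on at least 1 array and 18 on none. Among those 20, 15 read lower on both neuronal arrays than on each of the other 4. Only 3 of the 20 were above background on a neuronal array, so the way they were chosen favours this order. The same count over all named genes was not made. All 8 measured forebrain factor genes were above background on the neuronal pair, and 3 of them on each other array. Neurod2, a transcription factor of cortical neurons, read 4977 and 5652 on it and 12.7 to 28.7 elsewhere, and Neurod6, a related factor, 1957 and 2022 against 9.68 to 10.7. Dlx1 and Dlx2, factors of forebrain interneurons, read 4472 and 4360 against 24.4 to 30.2 and 1448 and 1233 against 1.66 to 122. Dlx5, named here outside the rule and after its values were seen, did not share this pattern, with 1269 and 1160 on the neuronal pair, 5958 and 382 on the gonadal pair, and 3752 and 4297 on the keratin-rich pair. Of the 8 hindbrain and cerebellum genes, 0 and 1 were above background on mock brain and SHT ovary.

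**Figure D1:**
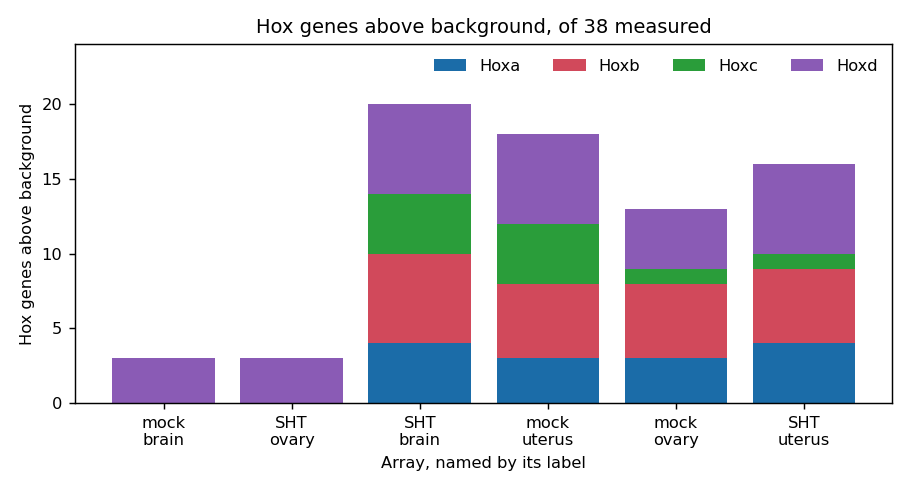
Number of Hox genes (vertical axis) above background on each array (horizontal axis), with colours for the 4 clusters. Mock brain and SHT ovary show 3 genes each, all of Hoxd, and the other 4 arrays show 13 to 20.

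The clusters then divided the other 4 arrays. Hoxc6, Hoxc8 and Hoxc9 were above background on the gonadal pair and under it on the keratin-rich pair. The 5′ Hoxa genes were brightest on the keratin-rich pair, and Hoxb3, Hoxb6, Hoxb7 and Hoxb8 overlapped between these pairs.

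**Figure D2:**
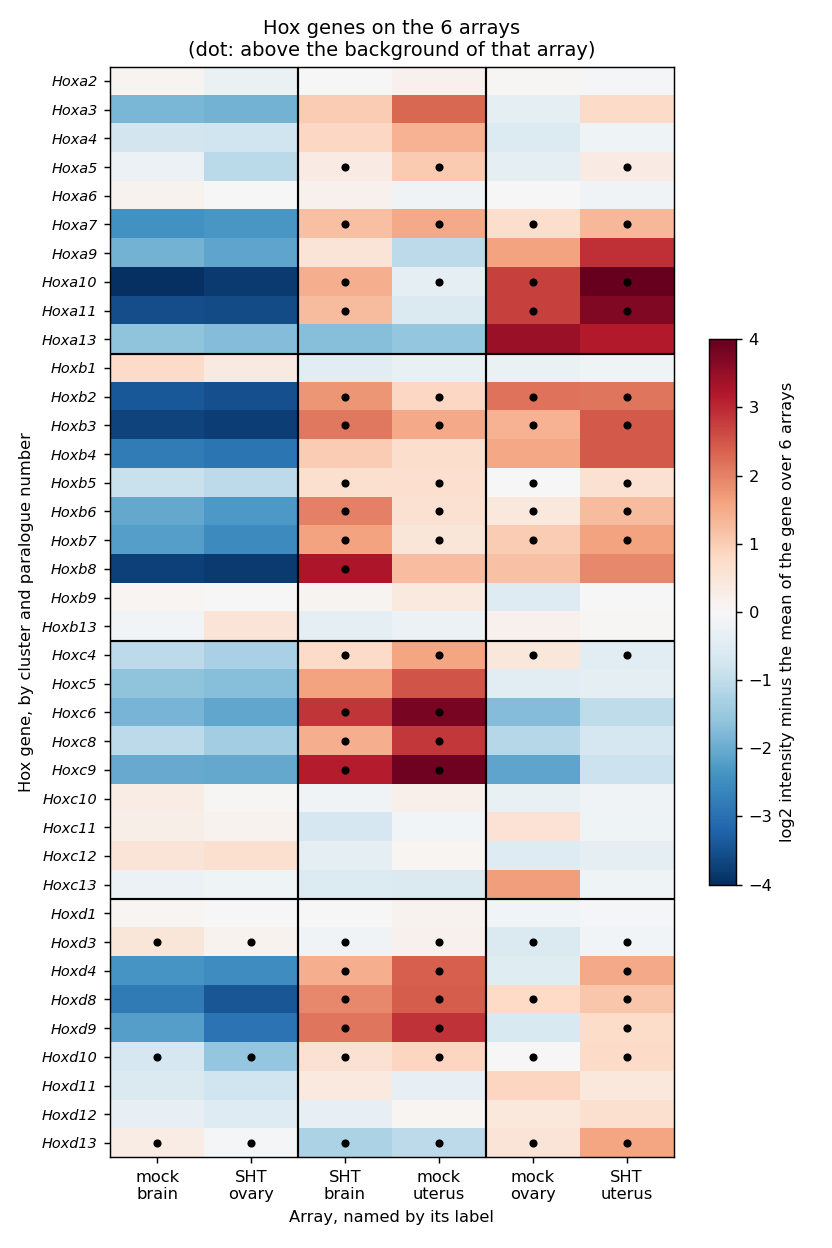
Log2 intensity of each of the 38 Hox genes (rows, by cluster and paralogue number) minus the mean of that gene over the 6 arrays (colour, from -4 in blue to 4 in red); columns are the arrays and dots mark values above background. Blue fills most rows on the 2 left arrays, Hoxc6 to Hoxc9 are red on SHT brain and mock uterus, and Hoxa9 to Hoxa13 are red on mock ovary and SHT uterus.

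In the Hoxa cluster the 5′ genes separated the arrays most. Hoxa10, needed for the uterus to accept an embryo, read 26.7 on mock brain and 29.6 on SHT ovary, 1163 on SHT brain and 324 on mock uterus, and 2805 on mock ovary and 6642 on SHT uterus. Its 3 pairs of arrays thus did not overlap. Hoxa11, which shapes the uterine stroma, read 24.4 and 23.5 on mock brain and SHT ovary, 678 and 188 on SHT brain and mock uterus, and 1890 and 3669 on mock ovary and SHT uterus. It kept the order of Hoxa10 and was under background on mock uterus. Hoxa13, the gene of the lowest part of the tract and of the distal limb, read 214 on mock ovary and 175 on SHT uterus and between 1.31 and 2.32 on the other 4 arrays. These 2 readings stand apart from the rest but lie under the background of their arrays (312 and 319), so Hoxa13 was not counted anywhere. Hoxa9 had the same shape below background, with 79.0 and 197 on the keratin-rich pair, 37.2 and 12.6 on the gonadal pair and 6.98 and 5.94 on the neuronal pair. The squamous and uterus markers also had their highest sums, given above, on the keratin-rich pair. Not every uterus marker followed: Ltf and Oxtr overlapped with the gonadal pair, Wnt7a was highest on mock brain (700), and Foxa2 was under background on all arrays. The part of these markers in the Hoxa values was not tested.

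The promoters of 3 of these genes are shown. Hoxa10 and Hoxa11 were above background on the keratin-rich pair, and Hoxa13 read highest there but under background. The window of Hoxa9, which had the same shape, is not printed and holds 3 CG pairs. Each line gives the 250 bases before a RefSeq start in build GRCm38.p6, 5′ to 3′ on the strand of the gene, with every CG pair in capitals.
Hoxa10, chr6:52234940-52235189, minus strand: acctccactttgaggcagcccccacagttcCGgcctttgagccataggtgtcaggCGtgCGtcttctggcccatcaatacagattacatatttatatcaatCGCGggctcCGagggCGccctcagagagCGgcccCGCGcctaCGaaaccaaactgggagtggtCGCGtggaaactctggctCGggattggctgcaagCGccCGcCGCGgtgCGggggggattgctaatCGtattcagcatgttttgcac
Hoxa11, chr6:52245811-52246060, minus strand: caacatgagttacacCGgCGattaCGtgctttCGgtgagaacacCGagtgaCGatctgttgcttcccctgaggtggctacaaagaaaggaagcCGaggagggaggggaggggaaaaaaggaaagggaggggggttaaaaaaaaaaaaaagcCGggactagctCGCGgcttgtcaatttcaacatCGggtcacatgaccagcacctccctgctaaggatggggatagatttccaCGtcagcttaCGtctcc
Hoxa13, chr6:52260881-52261130, minus strand: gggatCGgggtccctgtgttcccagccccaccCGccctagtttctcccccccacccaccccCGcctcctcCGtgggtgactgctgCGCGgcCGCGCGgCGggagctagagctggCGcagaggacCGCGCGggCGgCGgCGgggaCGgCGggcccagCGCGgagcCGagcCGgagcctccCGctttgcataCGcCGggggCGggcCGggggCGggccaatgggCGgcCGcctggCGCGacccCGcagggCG

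The transcript that runs antisense to Hoxa11, Hoxa11os, is no Hox gene by the rule, but its probe followed the same arrays. It read 3.33 and 2.01 on mock brain and SHT ovary, 138 and 51.8 on SHT brain and mock uterus, and 1691 and 4286 on mock ovary and SHT uterus. Whether the probe reads the antisense strand alone was not stated.

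The genes further 3′ in Hoxa ran differently. Hoxa7 read 44.0 and 47.4 on the neuronal pair and was above background on all other arrays, with 553 on SHT brain, 678 on mock uterus, 389 on mock ovary and 597 on SHT uterus. Hoxa5, which patterns lung and the mid-trunk, was highest on mock uterus (529), read 322 on SHT brain and 321 on SHT uterus, and was under background on mock ovary (201), mock brain (218) and SHT ovary (123). Hoxa3 and Hoxa4 stayed under background everywhere and were also highest on mock uterus, at 175 and 182. Hoxa2 (59.1 to 80.8) and Hoxa6 (8.33 to 10.3) hardly varied over the 6 arrays.

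**Figure D3:**
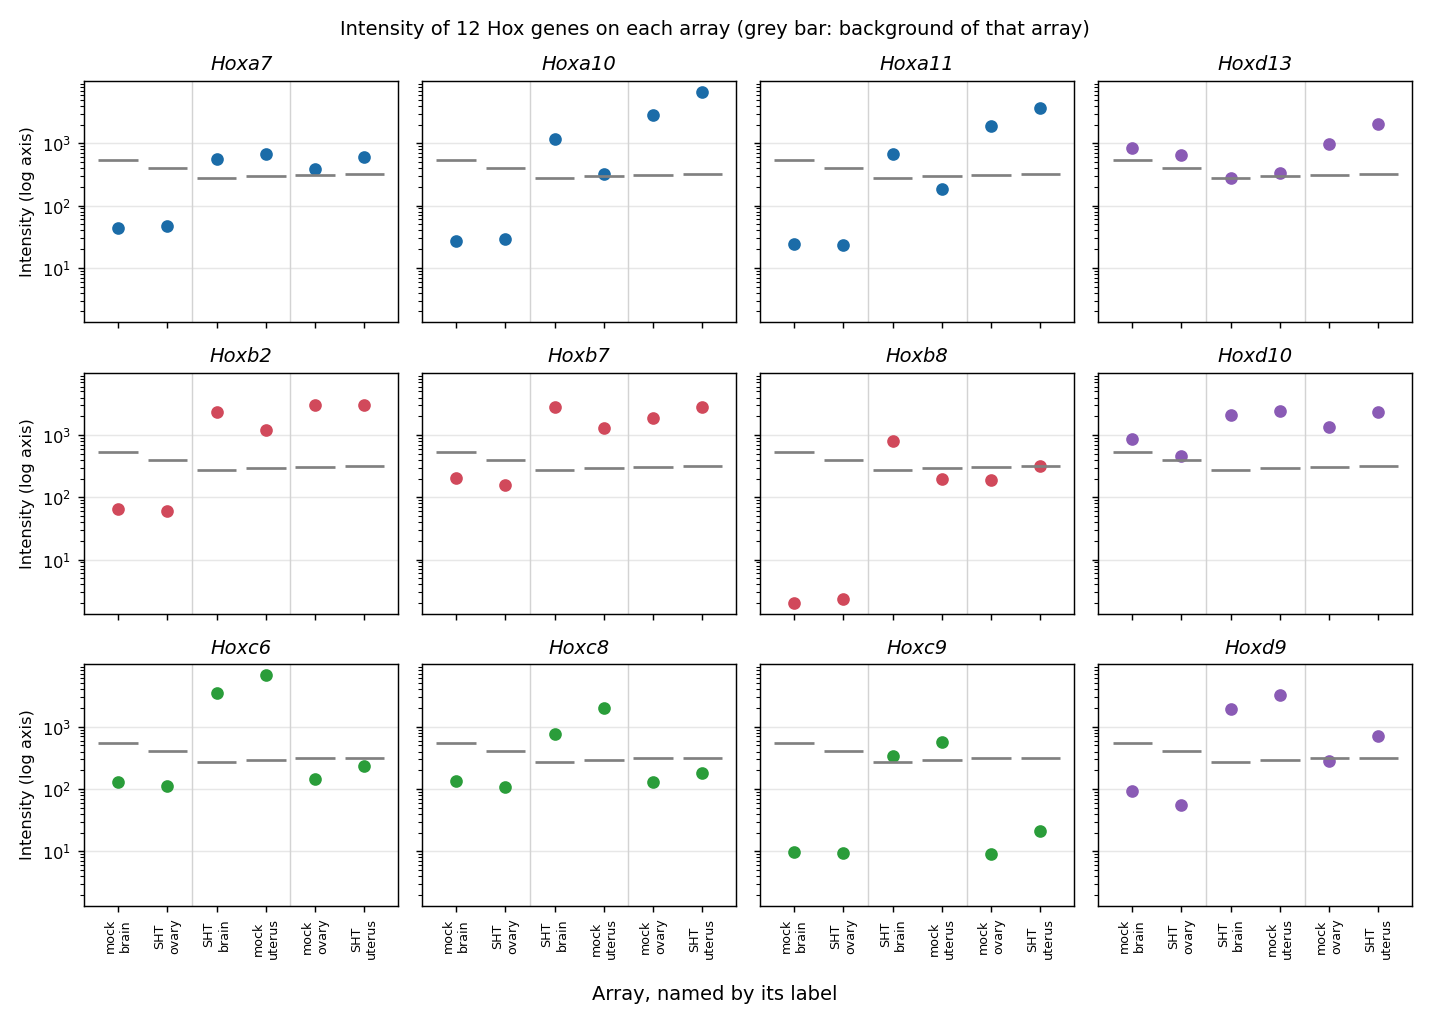
Intensity (vertical axes, log scale) of 12 Hox genes on each array (horizontal axes), 1 point per array, coloured by cluster; the grey bar is the background of that array. Hoxa10 and Hoxa11 are highest on mock ovary and SHT uterus, Hoxc6, Hoxc8 and Hoxc9 on SHT brain and mock uterus, and Hoxd13 is above its bar on all 6 arrays.

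The Hoxb cluster was used on all 4 arrays outside the neuronal pair, and no gene of it was above background on the neuronal pair. Hoxb2, a gene of the hindbrain segments in the embryo, read 65.2 and 59.8 on mock brain and SHT ovary, 2331 and 1209 on SHT brain and mock uterus, and 3086 and 3043 on mock ovary and SHT uterus. Hoxb7, a trunk gene, read 203 and 161, then 2868 and 1310, then 1896 and 2818 in the same order of arrays. The keratin-rich pair was thus the higher one for Hoxb2, while both pairs overlapped for Hoxb7. Hoxb3, which patterns the hindbrain and throat region, read 14.4 and 13.9 on mock brain and SHT ovary, 821 and 538 on SHT brain and mock uterus, and 494 and 1042 on mock ovary and SHT uterus. Its other probe did not follow, with 371 and 280 on the neuronal pair and 243 to 276 elsewhere. Hoxb5 read 210 and 190 on the neuronal pair, 613 and 618 on the gonadal pair, and 400 and 599.9 on the keratin-rich pair. The gonadal and keratin-rich pairs lay close together for Hoxb5 without overlap. Hoxb6 read 81.9 and 69.5, then 1385 and 521, then 460 and 816 in the same order of arrays, and these overlapped. Hoxb8 was above background on SHT brain alone (796). It read 316 on SHT uterus, just under background, 196 on mock uterus, 188 on mock ovary, and under the floor of the scale on mock brain and SHT ovary. Hoxb4 was highest on SHT uterus (244) and under background on all arrays. Hoxb1, Hoxb9 and Hoxb13, at the ends of the cluster, were under background on all arrays, and Hoxb1 was highest on mock brain (522).

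Hoxc6, Hoxc8 and Hoxc9 were above background on the gonadal pair alone. Hoxc6, a gene of the thoracic region, read 3429 on SHT brain and 6666 on mock uterus. On the other arrays it read 131 (mock brain), 114 (SHT ovary), 144 (mock ovary) and 234 (SHT uterus), all under background. Hoxc8 read 776 and 2001 on SHT brain and mock uterus, 136 and 108 on mock brain and SHT ovary, and 128 and 178 on mock ovary and SHT uterus. Its other probe read 77.2 to 116 on all arrays and showed no such difference. Hoxc9 read 339 and 566 on SHT brain and mock uterus, 9.58 and 9.26 on mock brain and SHT ovary, and 8.97 and 21.4 on mock ovary and SHT uterus. For these 3 genes the gonadal pair lay above all 4 other arrays, and mock uterus was the higher of the pair each time. Hoxc4 kept that order with a smaller gap, with 951 and 1673 on SHT brain and mock uterus, 769 and 407 on mock ovary and SHT uterus, and 273 and 227 on mock brain and SHT ovary. Hoxc5 read 59.2 and 111 on the gonadal pair and 3.98 to 15.3 elsewhere, all below background. The 5′ genes Hoxc10, Hoxc11, Hoxc12 and Hoxc13 were under background on all arrays. Hoxc13, a gene of hair and nails, stood at 188 on mock ovary and at 39.6 to 52.3 elsewhere.

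Hoxc8 and Hoxc9 are also known as genes of white fat, and fat, ovary and oviduct markers were read beside them. The 5 fat markers had summed intensities of 44102 and 71354 on SHT brain and mock uterus, of 34442 and 46400 on mock ovary and SHT uterus, and of 806 and 441 on mock brain and SHT ovary. The sum on SHT uterus was above that on SHT brain, but it includes Ucp1, the gene of brown fat. Ucp1 read 3460 and 6623 on mock ovary and SHT uterus and 15.3 and 19.6 on SHT brain and mock uterus. Adipoq read 8371 and 18117 on SHT brain and mock uterus, against 3070 and 5735 on mock ovary and SHT uterus. Cfd and Plin1 were likewise higher on both gonadal arrays. Fabp4 overlapped, with 11168 and 15615 on the gonadal pair and 14217 and 13816 on the keratin-rich pair. The ovary markers had sums of 96184 and 141207 on SHT brain and mock uterus and of 1258 to 4540 elsewhere. The 5 oviduct and ciliated cell markers were all above background on SHT brain and mock uterus, with sums of 28304 and 37248, and none was elsewhere, with sums of 236 to 991. Hoxc6, Hoxc8 and Hoxc9, as given above, were under background on the keratin-rich pair. The part of fat or of any other cell type in the Hoxc values was not tested.

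The Hoxd cluster held both orders. Hoxd8 and Hoxd9, genes of the lower trunk, were highest on the gonadal pair. Hoxd9 read 1896 and 3196 on SHT brain and mock uterus, 282 and 715 on mock ovary and SHT uterus, and 93.3 and 55.8 on mock brain and SHT ovary. Hoxd8 read 1777 and 2515, then 820 and 1006, then 66.6 and 43.6 in that order, and its 3 pairs of arrays did not overlap. Hoxd4 read 547 on SHT brain, 1046 on mock uterus, 576 on SHT uterus and 145 on mock ovary, against 38.9 and 35.8 on the neuronal pair. Hoxd10, a gene of the lumbar region, was above background on all 6 arrays, with 863 and 468 on mock brain and SHT ovary, 2086 and 2467 on SHT brain and mock uterus, and 1338 and 2314 on mock ovary and SHT uterus. Hoxd13, the 5′ end of the cluster and a gene of the digits and the urogenital outlet, turned the order round. It read 2035 on SHT uterus and 961 on mock ovary, 833 and 646 on mock brain and SHT ovary, and 282 and 330 on SHT brain and mock uterus. The gonadal pair was therefore the lowest for Hoxd13, just above background. Hoxd3 was above background everywhere with no such order, reading 964 and 764 on the neuronal pair, 632 and 782 on the gonadal pair, and 468 and 647 on the keratin-rich pair. Hoxd1, Hoxd11 and Hoxd12 were under background throughout, with Hoxd11 highest on mock ovary (103). RefSeq gives overlapping transcripts for Hoxa3 with Hoxa4, Hoxa5 and Hoxa6, for Hoxb3 with Hoxb4, for Hoxd3 with Hoxd4 and for Hoxd10 with Hoxd11, and which of these a probe reads was not given.

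The promoters from the other side of the division, Hoxd8 and Hoxd9, are shown in the same form for comparison, since these genes read highest on the gonadal pair.
Hoxd8, chr2:74704365-74704614, plus strand: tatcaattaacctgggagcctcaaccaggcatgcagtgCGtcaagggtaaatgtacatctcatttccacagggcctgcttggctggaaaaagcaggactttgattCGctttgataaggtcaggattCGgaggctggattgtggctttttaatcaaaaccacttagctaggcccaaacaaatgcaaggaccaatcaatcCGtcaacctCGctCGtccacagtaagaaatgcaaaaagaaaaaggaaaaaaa
Hoxd9, chr2:74697513-74697762, plus strand: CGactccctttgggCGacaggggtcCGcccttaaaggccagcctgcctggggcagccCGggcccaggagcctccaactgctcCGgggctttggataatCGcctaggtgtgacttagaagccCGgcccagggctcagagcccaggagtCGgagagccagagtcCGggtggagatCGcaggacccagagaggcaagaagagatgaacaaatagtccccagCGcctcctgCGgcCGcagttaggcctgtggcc

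The windows of Hoxa10, Hoxa11, Hoxa13, Hoxd8 and Hoxd9 hold 20, 13, 35, 6 and 13 CG pairs. That of Hoxa9, highest on the same pair of arrays as Hoxa10, holds 3, more than 29.0% of all windows. The printed windows therefore do not stand for all genes of either side. Over the 24 windows that the table gives for 22 of the 38 Hox genes, the count ran from 2 to 35 with a median of 12.5, beside a median of 6 over all 32851 promoter windows of the same length. Hoxa13 had more CG pairs than 97.0% of all windows, and Hoxd8, at 6, more than 49.6%. Hoxa11 and Hoxd9 had the same count, although they read highest on different pairs of arrays. The window of another start of Hoxa10 has 7. The motifs searched, on both strands and with none holding another, were the TATA box as TATAAA, the CAAT box core as CCAAT, the Sp factor site as GGGCGG, the nuclear receptor element as AGGTCA and the joint site of Hox and Pbx as TGATTNAT. GGGCGG stood in 10 of the 24 windows and in 32.7% of all windows, and 5 times in that of Hoxa13. CCAAT stood in 14 of the 24 and in 33.8% of all. AGGTCA stood in 6 of the 24, among them Hoxd8, and in 14% of all. TATAAA stood in 4 and TGATTNAT in 2, beside 12.4% and 2.82% of all windows. The window of Hoxa11 held none of the 5 motifs, which says only that these letters are not there.

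The labelled comparison of SHT with mock was made for each tissue label. A gene was counted if the 2 arrays differed at least 2-fold, relative to the median gene of the pair, and the brighter array was above its background. All 17742 named genes entered, with no filter. A fold is given as "at least" where the dimmer array was under its background, and that background was then used in place of the reading.

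In the pair labelled brain, 17 of 38 Hox genes were higher on the SHT array and 1 was lower, beside 17.1% and 13.1% of all named genes. This sets the array labelled SHT brain, of the gonadal pair, against mock brain, of the neuronal pair. The Hox genes had a median log2 difference of 1.80 relative to the median gene. By cluster, 3 of 10 Hoxa, 6 of 10 Hoxb, 4 of 9 Hoxc and 4 of 9 Hoxd genes were higher. The central genes made up most of them, with 10 of the 15 genes of paralogue numbers 4 to 8 higher. The largest bounds were those of Hoxc6 (at least 6.86-fold), Hoxb7 (at least 5.74-fold) and Hoxb2 (at least 4.66-fold). Hoxd9 was at least 3.79-fold and Hoxd8 at least 3.55-fold higher. Hoxd10, measured above background on both arrays, was 2.62-fold higher. Hoxd13 was the gene that was lower, 2.72-fold. Hoxc9 was counted but had no bound above 1, since its value on SHT brain (339) was under the background of mock brain.

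In the pair labelled ovary, 0 of 38 Hox genes were higher and 11 were lower on the SHT array, beside 14.7% and 15.5% of all genes. Here SHT ovary, of the neuronal pair, is set against mock ovary, of the keratin-rich pair. The median log2 difference of the Hox genes was -1.52. The lower genes were 3 of Hoxa, 5 of Hoxb, 1 of Hoxc and 2 of Hoxd. Hoxb2 was at least 8.38-fold lower, Hoxa10 at least 7.61-fold, Hoxb7 at least 5.14-fold and Hoxa11 at least 5.13-fold. Hoxd10 was 3.13-fold lower with both arrays above background, and Hoxd8 at least 2.23-fold. Hoxc4 was the only Hoxc gene counted, at least 2.09-fold lower.

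**Figure D4:**
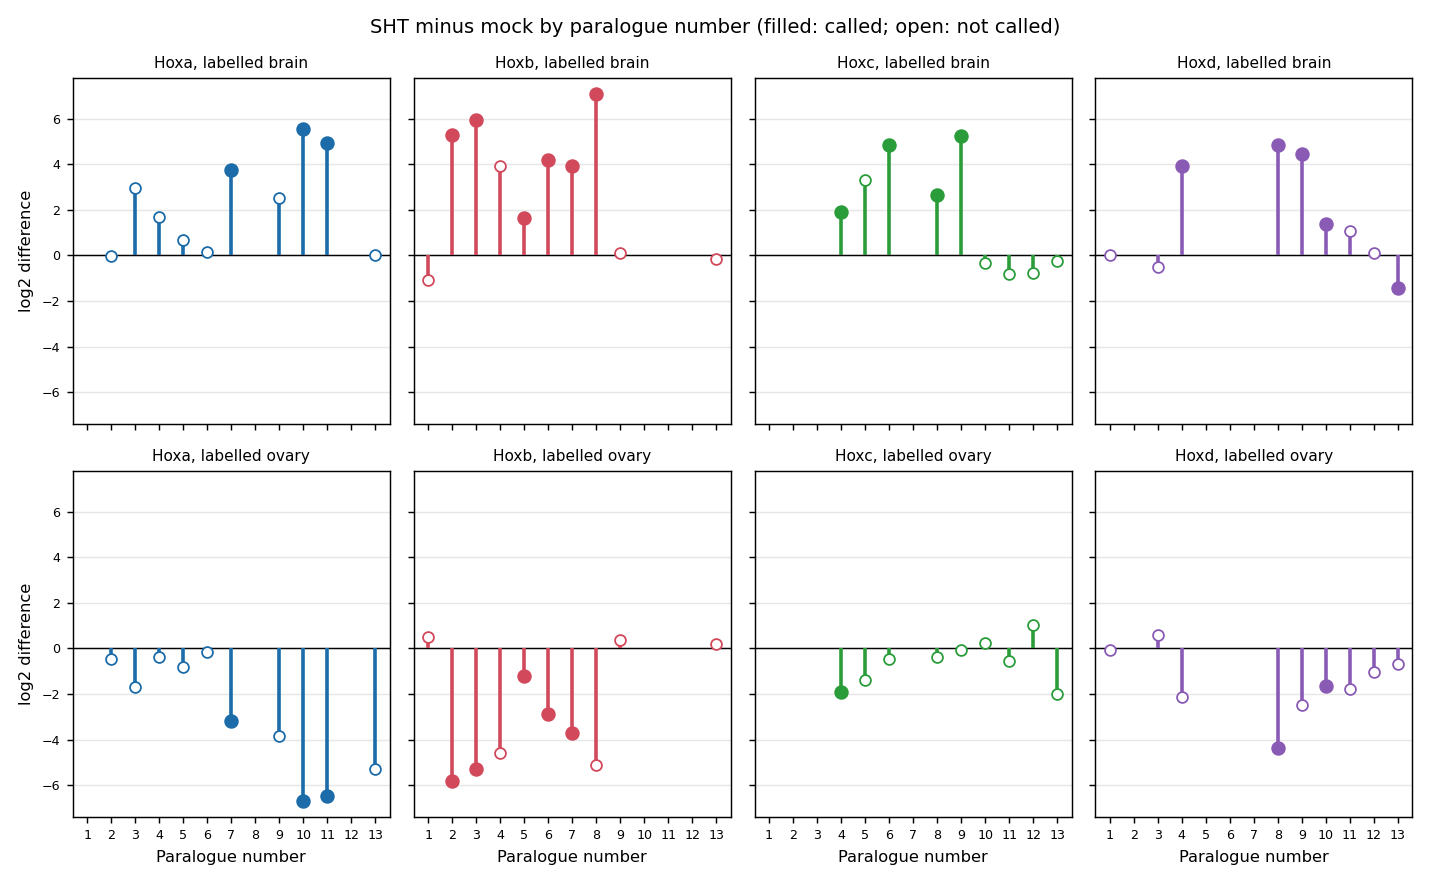
Log2 difference SHT minus mock (vertical axes) against paralogue number (horizontal axes) for each cluster, in the pairs labelled brain (top) and ovary (bottom); filled points were counted as at least 2-fold apart and open points were not. Hoxd13 is the only filled point below 0 in the pair labelled brain, and all 11 filled points lie below 0 in the pair labelled ovary.

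In the pair labelled uterus the Hox genes went both ways. On the SHT array 5 were higher and 6 lower, beside 8.89% and 5.94% of all genes, so 27 of 38 were not counted. This sets SHT uterus, of the keratin-rich pair, against mock uterus, of the gonadal pair. The median log2 difference of the Hox genes was -0.07, and their median absolute difference was 0.80 against 0.38 over all genes. Hoxa10 was 20.7-fold higher with both arrays above background. Hoxa11 was at least 12.6-fold, Hoxd13 6.23-fold, Hoxb2 2.55-fold and Hoxb7 2.18-fold higher. Hoxc6 was at least 20.7-fold lower, Hoxc8 at least 6.21-fold and Hoxc9 at least 1.76-fold. Hoxd9 was 4.42-fold, Hoxc4 4.06-fold and Hoxd8 2.47-fold lower with both arrays above background.

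By place in the cluster, the log2 differences of Hoxa in that pair ran from -0.23 (Hoxa2), -1.51 (Hoxa3) and -1.56 (Hoxa4) over -0.70 (Hoxa5), 0.01 (Hoxa6) and -0.17 (Hoxa7) to 3.98 (Hoxa9), 4.37 (Hoxa10), 4.30 (Hoxa11) and 4.73 (Hoxa13). The Spearman correlation of difference with paralogue number was 0.89 over the 10 Hoxa genes, 0.65 over the 9 Hoxd genes, 0.67 over the 9 Hoxc genes and -0.33 over the 10 Hoxb genes. These are descriptions over genes that share 2 arrays, and Hoxa2, Hoxa3, Hoxa4, Hoxa6, Hoxa9 and Hoxa13 were under background on both. In Hoxd the differences went down from -0.26 (Hoxd3) to -2.14 (Hoxd9) and were -0.08 for Hoxd10 and 2.64 for Hoxd13. In Hoxc the differences were largest in the middle, from -2.02 (Hoxc4) to -4.81 (Hoxc6) and -4.71 (Hoxc9), and between -0.45 and 0.42 from Hoxc10 to Hoxc13, where no array was above background.

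**Figure D5:**
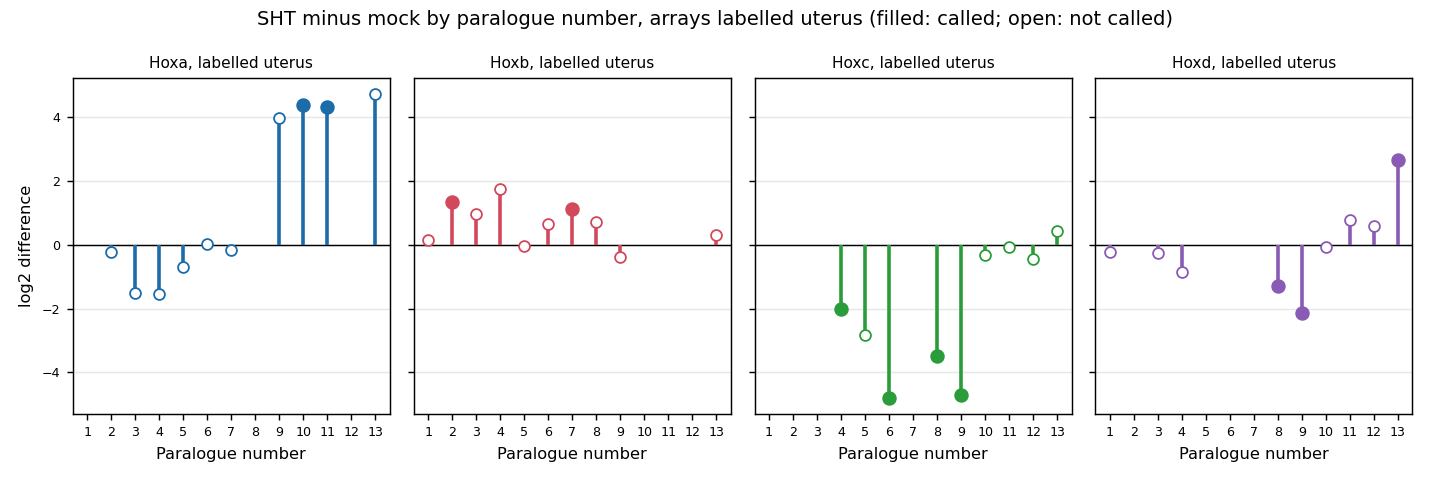
Log2 difference SHT minus mock (vertical axis) against paralogue number (horizontal axis) for the 4 clusters in the pair labelled uterus; filled points were counted as at least 2-fold apart and open points were not. Hoxa9 to Hoxa13 lie between 3.98 and 4.73, Hoxc4 to Hoxc9 between -4.81 and -2.02, and Hoxd8 and Hoxd9 lie below 0 while Hoxd13 lies above it.

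The average SHT effect over the 3 tissue labels was fitted with limma across all genes. At an adjusted p under 0.05 it called 0 of 17742 genes (0%) and 0 of 38 Hox genes. At an unadjusted p under 0.05 there were 11 genes (0.062%), 0 of them Hox genes, which is below the share of 0.05 that no effect would give. The label block does not remove the differences between the marker pairs, which enter the residual. The count of 0 is therefore no result about the Hox genes. The average of Hoxa10 was 1.08 on the log2 scale with a 95% interval from -6.83 to 8.98, and that of Hoxc6 was -0.15 with an interval from -5.91 to 5.60 (limma, adjusted p = 1 for both). The intervals measure the spread between the labelled tissues, whose labels the markers contradict, and not the spread between mice.

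The gonadal and keratin-rich arrays can also be compared within a treatment label, which uses each of these 4 arrays once. This comparison was added after the values were seen. Between the 2 mock arrays, mock uterus minus mock ovary, 7 Hox genes were higher and 4 lower, beside 9.37% and 8.51% of all genes. Between the 2 SHT arrays, SHT brain minus SHT uterus, 7 were higher and 3 lower, beside 4.83% and 7.68%. The log2 difference of Hoxc6 was 5.22 in the first and 4.07 in the second, that of Hoxc9 5.67 and 4.19, and that of Hoxd9 3.19 and 1.61. Hoxa10 had -3.42 and -2.31, Hoxa11 -3.64 and -2.24, and Hoxd13 -1.85 and -2.65. For genes whose gonadal and keratin-rich pairs do not overlap, as for these 6, the same sign in both is fixed by the values already given. Hoxb6 (-0.13 and 0.96), Hoxb7 (-0.84 and 0.22) and Hoxb8 (-0.25 and 1.53) had opposite signs.

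Arrays of like markers were also set against each other. Between the neuronal arrays, SHT ovary minus mock brain, 0 of 38 Hox genes were higher and 0 lower, beside 0.0169% and 0.0225% (0.0395% either way) of all genes, and the median absolute log2 difference was 0.13 for both sets. Between the keratin-rich arrays, SHT uterus minus mock ovary, 2 were higher and 1 lower, beside 3.9% and 3.09% (6.99% either way) of all genes. The median absolute log2 difference was 0.45 for the Hox genes and 0.33 for all genes. Hoxd4 was higher by 1.66 and Hoxd9 by 1.01 on SHT uterus, and Hoxc4 lower, at -1.25. On mock uterus minus SHT brain 1 was higher and 6 were lower, beside 0.755% and 3.38% (4.14% either way) of all genes, and the median absolute difference was 0.48 against 0.24. Beside these stand medians for the Hox genes of 1.03 between the 2 mock arrays and 0.39 between the 2 SHT arrays of unlike markers, so the gonadal and keratin-rich pairs were not closer than all unlike pairs by this measure. Hoxa10 had a log2 difference of -2.09, Hoxa11 -2.10, Hoxb8 -2.27, Hoxb6 -1.66, Hoxb7 -1.38 and Hoxb2 -1.19, while Hoxc8 had 1.12. SHT brain thus had higher values of 5′ Hoxa and of Hoxb genes and a lower value of Hoxc8 than its partner. The uterus markers had a sum of 96963 on SHT brain and 74168 on mock uterus, of which Ltf alone read 42062 and 22691. Esr1, Pgr, Des and Wnt7a were also higher on SHT brain, while Acta2, Oxtr and Foxa2 were lower there. The part of these markers in the Hox differences was not tested. These pairs share arrays with the labelled comparisons.

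Over the 38 Hox genes, log2 intensities correlated at 0.994 between the neuronal arrays, 0.947 between the gonadal arrays and 0.963 between the keratin-rich arrays (Pearson). The other 12 of 15 pairs of arrays ran from 0.48 to 0.81 over the Hox genes and from 0.77 to 0.93 over all genes. These values are across genes, and probes differ in brightness on every array alike, which raises all of them.

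Hox proteins bind DNA together with the TALE proteins Pbx, Meis and Pknox. Of 9 such genes, 6 were measured, and 1 was higher and 1 lower in the pair labelled brain and in the pair labelled ovary, with 1 higher and 0 lower in the pair labelled uterus. Of all genes, 17.1% higher and 13.1% lower under brain, 14.7% and 15.5% under ovary, and 8.89% and 5.94% under uterus were counted, so 1 of 6 lies near these shares. The median log2 differences of the 6 were -1.31, 0.80 and 0.05, where the median over all genes is 0 by construction. Meis1 was highest on the keratin-rich pair, with 817 and 896 on the neuronal pair, 2786 and 2944 on the gonadal pair, and 4164 and 7761 on the keratin-rich pair. Pbx4 ran the other way, with 2121 and 2331 on the neuronal pair and 74.4 to 146 elsewhere. Meis2 and Meis3 were under background on all arrays.

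The proteins of the Polycomb and Trithorax genes keep Hox genes silent or active. Of 17 measured, 2 were higher and 2 lower in the pair labelled brain, 4 higher and 1 lower in the pair labelled ovary, and 0 in the pair labelled uterus. The shares of all genes were 17.1% higher and 13.1% lower under brain, 14.7% and 15.5% under ovary, and 8.89% and 5.94% under uterus. The medians of the list were 0.14, 0.03 and 0.03. Cbx2 was not counted in any pair and read 72.7 and 64.7 on the neuronal pair and 193 to 399 elsewhere. Ezh2, the enzyme that writes the Polycomb mark, read 198 and 147 on the neuronal pair and 776 to 1669 elsewhere. Cbx7 and Cbx8, which read that mark, were 2.24-fold and 2.41-fold lower in the pair labelled brain and 3.92-fold and 2.54-fold higher in the pair labelled ovary.

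Retinoic acid switches on 3′ Hox genes in the embryo. Of 12 genes of its pathway, 4 were higher and 1 lower in the pair labelled brain, 1 higher and 6 lower in the pair labelled ovary, and 4 higher and 1 lower in the pair labelled uterus, with medians of 0.80, -1.54 and 0.80. Beside this, 17.1% higher and 13.1% lower under brain, 14.7% and 15.5% under ovary, and 8.89% and 5.94% under uterus of all genes were counted. Aldh1a1, a retinoic acid-producing enzyme, was 16.3-fold higher in the pair labelled brain and 13.3-fold lower in the pair labelled uterus. Crabp2, which carries retinoic acid to its receptor, was 6.54-fold higher, 17.2-fold lower and 4.83-fold higher in the 3 pairs. Crabp1, a related carrier, was 5.53-fold lower in the pair labelled ovary and 10.2-fold higher in the pair labelled uterus. Aldh1a2, another producing enzyme, read 279 and 222 on the neuronal pair, 2702 and 1105 on the gonadal pair, and 3393 and 1597 on the keratin-rich pair. Aldh1a3 was counted as higher in the pair labelled brain but had no bound above 1. Its value on SHT brain (294) was under the background of mock brain (542).

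The 15 genes of reproductive tract development had 3 higher and 0 lower in the pair labelled brain, 2 higher and 4 lower in the pair labelled ovary, and 3 higher and 1 lower in the pair labelled uterus, with median log2 differences of 0.34, -0.38 and 0.46. Over all genes the shares were 17.1% higher and 13.1% lower under brain, 14.7% and 15.5% under ovary, and 8.89% and 5.94% under uterus. Dkk2, an antagonist of Wnt signalling, read 5512 and 12014 on the keratin-rich pair and 242 to 365 elsewhere. Hand2, the stromal factor through which progesterone acts, read 546 on SHT uterus and was under background on the other arrays. Pax8, a factor of the Müllerian duct, read 130 and 110 on the neuronal pair, 2939 and 1316 on the gonadal pair, and 710 and 2067 on the keratin-rich pair. Msx2 read 256 and 298 on the keratin-rich pair, under background, and 10.3 to 57.4 elsewhere.

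Among 8 uterine genes listed as downstream of Hoxa10 or Hoxa11, 6 were higher and 0 lower in the pair labelled brain, 0 higher and 4 lower in the pair labelled ovary, and 1 higher and 0 lower in the pair labelled uterus, with medians of 2.26, -1.59 and 0.50. The background over all genes was 17.1% higher and 13.1% lower under brain, 14.7% and 15.5% under ovary, and 8.89% and 5.94% under uterus. Hmox1, a heme-degrading enzyme, was 6.26-fold higher in the first and 14.8-fold lower in the second. Lif, the cytokine of implantation, was above background on SHT brain alone (363). Lif, Ptger3 and Ptger4 (394 on SHT brain) were among the 6 higher in the pair labelled brain but had no bound above 1. Their values on SHT brain were under the background of mock brain (542). Ptger3, a prostaglandin receptor, read 56.1 and 69.8 on the neuronal pair, 359 and 441 on the gonadal pair, and 188 and 472 on the keratin-rich pair. Igfbp1 was under background on all arrays.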

How the data were processed

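Total RNA from 6 groups, 1 array each, was labelled with Cy5, per the labels' protocols. The authors deposited 1 table of linear intensity for 26423 probes per array. Limma is named, without version or role, per the submitters' processing notes. Not given in the sources used here: background correction, normalization and scanner. Probe symbols came from the platform annotation: 20377 probes had 1 symbol, 6046 had none, and 0 had several. After update through RefSeq names there were 17742 genes, each read by its brightest probe.

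Values were raised to the 5th percentile of the positive values of their array (5.66 to 6.66) before taking log2, and arrays were not scaled to each other. The number of arrays limits the precision, and no depth applies. Fold changes are relative to the median gene of the pair. The average SHT effect was fitted with limma 3.58.1 in R 4.3.3 (lmFit, eBayes with trend, labelled tissue as block, two-sided, Benjamini-Hochberg). The fit was tested on simulated data with the spread between the neuronal arrays (median absolute log2 difference 0.13 over all genes, beside 0.38 to 0.80 in the labelled pairs), so its recovery does not describe the power of this comparison. Other steps used Python 3.11.15 and pandas 2.3.3.

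Hox genes above background on at least 1 array are given in full, and from other lists up to 4 genes with the largest labelled difference, and names beyond this were chosen after their values were seen. The members and lists were chosen with earlier results of these data known, and the comparisons within a treatment were added after the values were seen. Alternatives covered scaling, floor, background, fold, filter, probe choice and the limma settings. Promoter windows came from RefSeq, and 16 Hox genes had no window in that table.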

Additional observations from a re-analysis of the deposited data

Results flagged for a closer look

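For 16 Hox genes the SHT array was counted as at least 2-fold higher under one tissue label and as at least 2-fold lower under another, with 1 array on each side. By markers, the label brain sets gonadal against neuronal, ovary sets neuronal against keratin-rich, and uterus sets keratin-rich against gonadal. A gene that differs between these marker pairs, beyond the spread within them, must therefore have opposite signs under different labels. For such a gene the opposite signs follow from which arrays are set against each other. With 1 array per group, SHT and the tissue on the array cannot be told apart. Genes with opposite signs where 1 side was not counted, such as Hoxb8 (7.08 under brain and -5.11 under ovary) and Hoxd4 (3.93 and -2.15), are not among the 16. Nor is Hoxb4 (3.95 and -4.59), which was under background on all arrays and counted on neither side. None of these contrasts between labels was tested, and the tissue markers contradict 4 of the labels. Of all named genes, 30.2% under brain, 30.2% under ovary and 14.8% under uterus were counted in either direction. The share of all genes counted in opposite directions was not computed, so the 16 cannot be called particular to the Hox genes. The gap is the distance between the highest and the lowest of a gene's log2 differences (SHT minus mock) over the labelled tissues.

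In Hoxa and Hoxb the opposite labels were brain, where SHT was higher, and ovary, where it was lower. The gap was 12.25 for Hoxa10 (5.56 and -6.69), 11.37 for Hoxa11 (4.91 and -6.46) and 6.93 for Hoxa7 (3.77 and -3.17). It was 11.23 for Hoxb3 (5.95 and -5.28), 11.10 for Hoxb2 (5.28 and -5.82), 7.63 for Hoxb7 (3.94 and -3.69), 7.05 for Hoxb6 (4.20 and -2.86) and 2.86 for Hoxb5 (1.66 and -1.20). The same labels gave gaps of 9.22 for Hoxd8 (4.85 and -4.36) 3.03 for Hoxd10 (1.39 and -1.64) and 6.93 for Hoxd9 (4.46 and -2.47). For Hoxd9 the lower value was not itself counted, and its counted lower value was -2.14 under uterus.

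In Hoxc the opposite labels were brain, with SHT higher, and uterus, with SHT lower. The gap was 9.97 for Hoxc9 (5.26 and -4.71), 9.64 for Hoxc6 (4.83 and -4.81), 6.10 for Hoxc8 (2.63 and -3.47), and 3.94 for Hoxc4 (1.92 and -2.02). Hoxd13 was the reverse, with SHT higher under uterus (2.64) and lower under brain (-1.45), a gap of 4.09. Differences with 1 array under background depend on values below the level of the olfactory receptor genes.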

How the results depend on the processing

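No count of Hox genes moved over 1.5 times under quantile normalization, centring on the median, the mean of probes or the higher floor. For counts and medians, 81 alternative values stayed within their limits and 13 did not, and none turned direction. Requiring a pair mean above the median pair mean of all probes gave 10 higher and 2 lower Hox genes in the pair labelled brain (17 and 1 before) and 7 lower in the pair labelled ovary (11 before). With background at the 99th percentile, 7 were lower in the pair labelled ovary and 0 in the pair labelled brain, and 1, 1 and 8 genes were above background on mock brain, SHT ovary and mock ovary. At the 90th percentile 2 were lower in the pair labelled brain. At 3-fold that number was 0, and 3 were higher in the pair labelled uterus (5 before). With the median probe as threshold, 6 genes were above background on mock brain and 6 on SHT ovary. Fewer or more genes pass such limits by construction. The limma count of called genes stayed at 0 under each alternative (4 to 615 at an unadjusted p under 0.05). Of 160 values of single genes, 148 stayed and 12 did not, 4 with the mean of probes and 8 with the higher floor. With the mean of both probes, the log2 difference of Hoxb3 was 2.73 in the pair labelled brain and -2.70 in the pair labelled ovary, and that of Hoxc8 was 1.37 in the pair labelled brain and -1.94 in the pair labelled uterus. With the higher floor, Hoxa10, Hoxa11, Hoxb3, Hoxb8 and Hoxc9 had 5.17, 4.39, 4.66, 4.62 and 3.39 in the pair labelled brain, Hoxa11 and Hoxb3 had -6.02 and -4.08 in the pair labelled ovary, and Hoxc9 had -4.23 in the pair labelled uterus. No paired analysis was possible because each group has 1 array and the replicate numbers pair nothing. The labelled tissue was the block of the limma fit, and without it 0 genes were called (12 at an unadjusted p under 0.05).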

Other observations

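The genes next to the Hox clusters were counted in the same way. Of 13 measured neighbours, 1 was higher and 0 lower in the pair labelled brain, and 1 was higher and 1 lower in each of the pairs labelled ovary and uterus. The shares of all genes were 17.1% higher and 13.1% lower under brain, 14.7% and 15.5% under ovary, and 8.89% and 5.94% under uterus, and the difference from the Hox genes was not tested. Evx1, a homeobox gene beside Hoxa13, was above background on mock ovary (588) and SHT uterus (483) and read 76.4 to 225 elsewhere. Skap2, at the other end of Hoxa, was 5.45-fold higher in the pair labelled brain. Skap1, beside Hoxb, was at least 1.12-fold lower in the pair labelled uterus, and Calcoco2 was under background on all arrays, at 9.33 to 56.7. Evx2, beside Hoxd13, lies outside the rule for named genes and was under background on all arrays, at 43.3 to 84.4.

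The ParaHox and Cdx genes, relatives of the Hox clusters, had 0 higher and 1 lower of 6 in the pair labelled brain, 1 higher and 0 lower in the pair labelled ovary, and 0 in the pair labelled uterus. A count of 1 in 6 lies near the shares of all genes, 13.1% lower under brain and 14.7% higher under ovary. The gene in both cases was Gsx1, which read 1093 and 786 on mock brain and SHT ovary and 230.2 to 374 elsewhere. Cdx4 and Gsx2 were under background on all arrays. Probes of the Hox-cluster microRNAs Mir10a and Mir196b were under background on all arrays.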
